A study of Sus scrofa with 31 samples.

Results

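The comparison set myocardium of 3 pig hearts after 48 h in the preservation labelled HOPE against myocardium of 3 other pig hearts after 48 h in the preservation labelled SCS. It holds 6 of the 31 samples of the series and 6 of the 24 samples of its first arm, chosen by their labelled treatment and time. Hearts 2, 4 and 6 were preserved by HOPE and hearts 1, 3 and 5 by SCS, and each heart was biopsied at 0, 12, 24 and 48 h. The labels do not spell out the abbreviations, which in heart preservation usually stand for hypothermic oxygenated perfusion and static cold storage. No genotype, drug, breed, age or sex is given for either group, and both groups share the 0 h biopsy as their start. The labels name cardiomyocytes as the cell type, while whole pieces of heart muscle were sequenced. A piece of muscle also holds vessel, connective tissue and blood cells, and in such samples fewer cells of a type and less RNA per cell cannot be told apart.

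In static storage the donor heart lies in cold solution without flow, and its cells live on what energy they hold. In hypothermic oxygenated perfusion a cold, oxygenated solution is pumped through the coronary vessels, so that oxygen reaches the mitochondria and waste is washed out. Heart muscle draws its energy mainly from fatty acids, burnt in the mitochondria by the tricarboxylic acid cycle and the respiratory chain, and a few subunits of that chain are encoded by the mitochondrion's own genome. The design asks how far the 2 ways of storage leave different transcriptomes after 48 h.

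Pigs were the replicates, with different pigs in the groups, and the 6 libraries held 20455199 to 32876138 recovered reads. Levels are normalised counts, that is, reads divided by 1 size factor per library. Gene positions are those of Sscrofa11.1 in RefSeq. Levels are given in the order of pigs 2, 4 and 6 for HOPE and of pigs 1, 3 and 5 for SCS. Differences are HOPE minus SCS on the scale of log2(normalised count + 1), with their standard error (SE), and a gene passed where its Benjamini-Hochberg adjusted p from limma was under 0.05. One library stood apart before any gene was compared. In SCS pig 5 at 48 h the 13 mitochondrially encoded genes took 82.4% of the normalised counts, which left 5628265 reads for all other genes, against 10632085 and 12533296 in SCS pigs 1 and 3. The HOPE libraries left 20587234, 23343490 and 15706403. All 11 tested ventricular cardiomyocyte markers, among them MYH7, were detected, and they summed to 1689080 to 1800120 normalised counts in HOPE and 1109380 to 1899650 in SCS.

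After 48 h, the genes higher in HOPE hearts included the lipase LPL, the tricarboxylic acid cycle gene DLST, desmoplakin, the calcium channel CACNA1C and ezrin. Those lower in HOPE included 6 of 13 mitochondrially encoded subunits, 16 of 38 ribosomal proteins, 5 of 12 S100 proteins and annexins, and 6 of 12 markers of T and NK cells. With limma 884 of 14141 genes passed (6.25%), 543 of them higher in HOPE (3.84%) and 341 lower (2.41%). All 3 HOPE values lay above all 3 SCS values in 509 of the 543 and below them in 330 of the 341, while over all tested genes 1483 (10.5%) lay above and 1437 (10.2%) below. The count leaned on the pooled spread of 24 libraries and on single pigs. The 24 libraries came from 6 pigs, and the fit treated them as independent. Its p values therefore do not measure the spread between pigs alone. A limma fit of only the 6 libraries called 0 genes, with 2474 at an unadjusted p under 0.05 against 3934 in the fit of all, and edgeR and DESeq2 on the recovered reads of the larger set called 706 and 1918. With the pig as a random block, limma called 1628. Without the 48 h library of SCS pig 5 limma called 14 genes, and without whole pigs 5, 2, 4 and 3 it called 5, 10, 11 and 51. Without pigs 6 and 1 it called 3165 and 3291. HOPE pig 6 was the lowest HOPE heart in 450 of the 543 higher genes (82.9%, against 41.6% of all tested genes) and the highest in 254 of the 341 lower genes (74.5%, against 40.2%), so it stood nearest to SCS. SCS pig 1 was the highest SCS heart in 374 of the 543 and the lowest in 224 of the 341. The share over all tested genes was not counted for SCS pig 1. Of the 89 passing genes covered by the naming rule, 5, 3, 89, 85, 9 and 1 still passed without pigs 2, 4, 6, 1, 3 and 5 in turn. SESN3 was the 1 that passed in all of these fits, and no difference turned its sign in them.

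**Figure D1:**
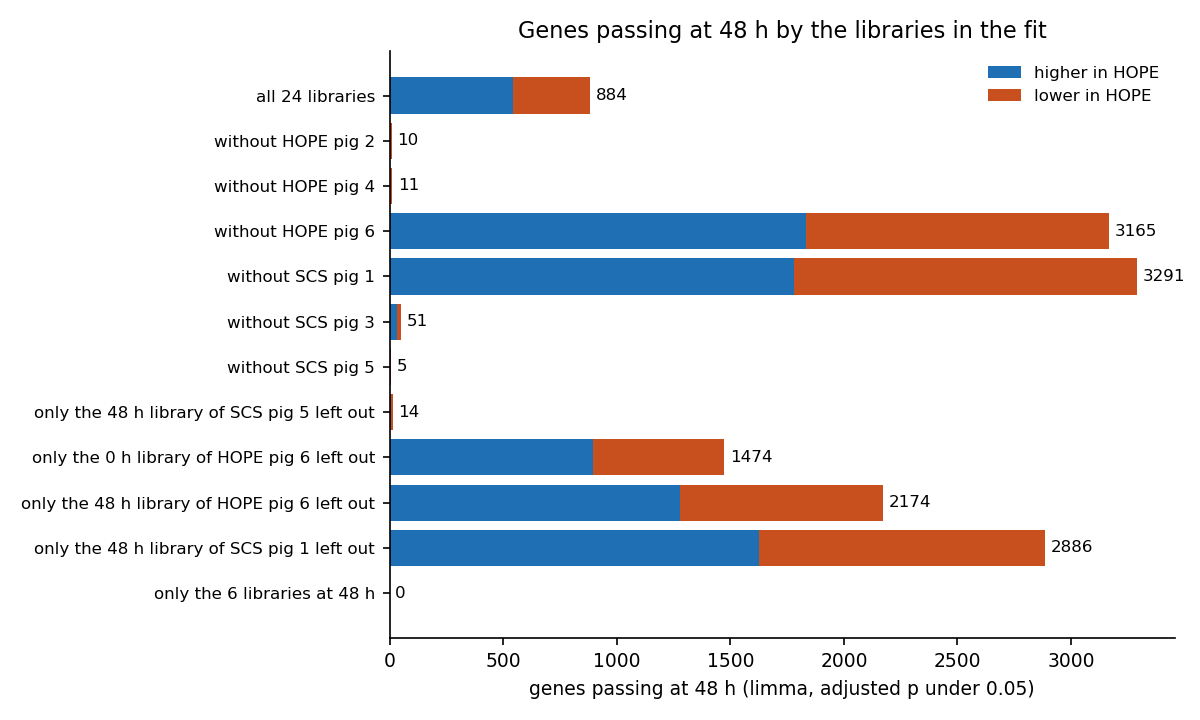
Number of genes passing at 48 h (x axis; limma, adjusted p under 0.05), higher in HOPE in blue and lower in orange, for fits with all 24 libraries, without each pig, without single libraries, and with the 6 libraries at 48 h alone. The count is 884 with all libraries, 5 without pig 5, 3291 without pig 1 and 0 with the 6 libraries alone.

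Part of the 48 h difference stood between the same hearts at 0 h, before storage. At 0 h no gene passed with limma (0%; 1020 at an unadjusted p under 0.05) or edgeR, 22 passed with DESeq2, and 337 passed with limma when pig 6 was left out. Of the 543 genes higher in HOPE at 48 h, 517 were also higher at 0 h, against 6861 of all 14141 tested genes. In 120 of the 543 all HOPE hearts lay above all SCS hearts then, as in 740 of all tested genes (5.23%). Of the 341 lower genes, 318 were lower at 0 h, against 7280 of all tested genes. In 61 of the 341 all HOPE hearts lay below all SCS hearts then, as in 875 of all (6.19%). The median difference of the higher genes was 0.44 at 0 h and 1.09 at 48 h, that of the lower genes -0.43 and -1.25, and that of all tested genes -0.02 and 0.02. In 189 of the higher and 78 of the lower genes the 0 h difference was already at least 50% of that at 48 h. A 0 h difference within 0.3 was seen in 155 of the higher genes (28.5%) and 113 of the lower (33.1%), and in 53.5% of all tested genes. The 0 h and 48 h libraries come from the same pigs, so these values share animals but no library.

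**Figure D2:**
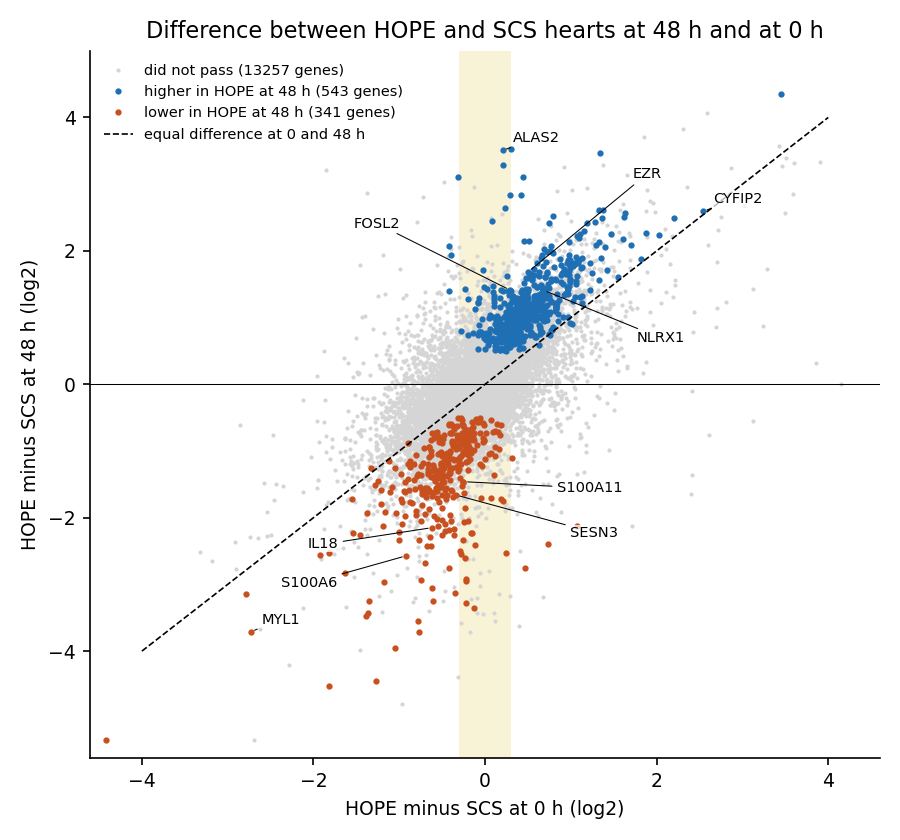
Difference between HOPE and SCS hearts at 48 h (y axis, log2) against that at 0 h (x axis, log2) for 14141 genes, with 543 higher genes in blue, 341 lower genes in orange and the others in grey. The shaded band marks a 0 h difference within 0.3, which holds 155 of the blue and 113 of the orange points, and the dashed line an equal difference at both times.

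The 13 mitochondrially encoded genes specify core subunits of respiratory complexes I, III and IV and of ATP synthase. At 48 h they took 31.8%, 29.00% and 31.5% of the normalised counts in HOPE and 48.02%, 59.98% and 82.4% in SCS. The groups did not overlap, and the HOPE hearts lay close together while the SCS hearts spread widely. The means were 30.8% ± 1.54 and 63.5% ± 17.4 (SD, n = 3 each; exact 2-sided permutation test, p = 0.1, the smallest that 3 against 3 can give). At 0 h they were 35.8% ± 3.30 and 42.4% ± 8.89, with overlapping groups (exact permutation p = 0.3). From 0 to 48 h the share moved by -5.01 ± 3.32 percentage points in HOPE and by 21.1 ± 8.87 in SCS (exact permutation p = 0.1). Without SCS pig 5 the 48 h difference was -23.2 points in place of -32.7.

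**Figure D3:**
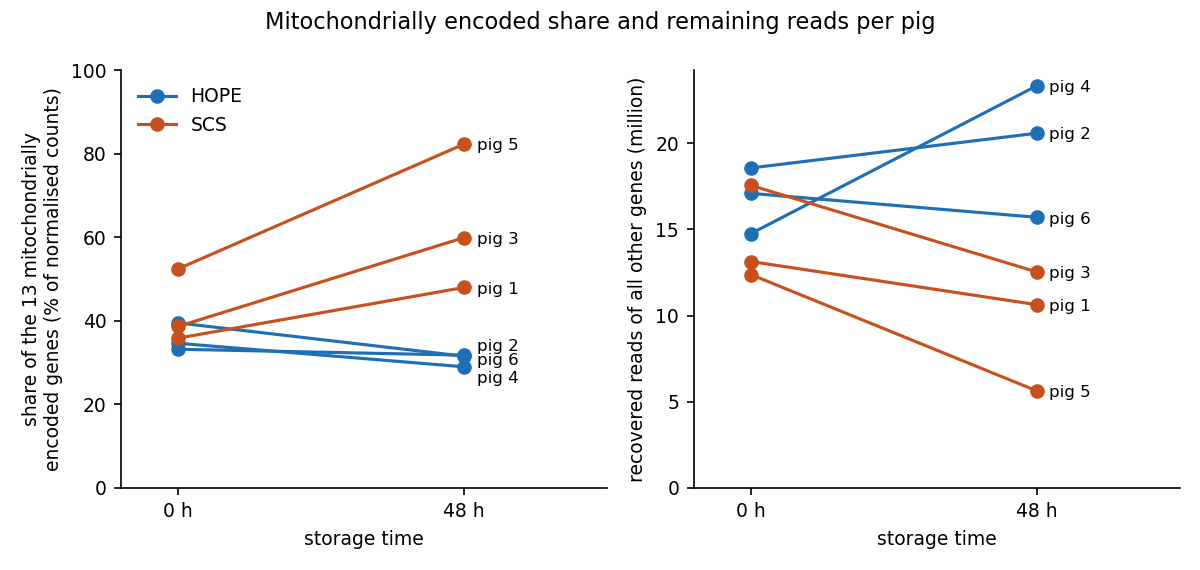
Left, share of the 13 mitochondrially encoded genes (% of normalised counts) and right, recovered reads of all other genes, at 0 and 48 h, with 1 line per pig, HOPE in blue and SCS in orange. At 48 h the 3 HOPE shares lie between 29.0% and 31.8% and the 3 SCS shares between 48.0% and 82.4%.

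All 13 mitochondrially encoded genes were lower in HOPE at 48 h, with a median difference of -2.06 against -0.27 at 0 h, and 6 of them passed (10 with the pig as a block). The complex I subunit ND4L (mitochondrial genome, 11069 to 11365) stood at 55855, 45608 and 64256 in HOPE and 169956, 236139 and 639267 in SCS. Every SCS heart lay above every HOPE heart, and pig 5 was the highest. The difference was -2.43 ± 0.41 (limma, adjusted p = 0.00874), and at 0 h the values were 47189.8, 48826 and 66709 and 81333, 73828 and 104840.0. ND4, ND5, ND3 and ND6, further complex I subunits, passed at -2.26, -2.19, -2.06 and -2.04, and ATP6, a subunit of the ATP synthase proton channel, at -2.18. CYTB (-2.00), COX1 (-2.22), COX2 (-2.01), COX3 (-2.10) and ND2 (-1.86) did not overlap between groups but did not pass, and ND1 (-1.66) and ATP8 (-1.42) overlapped. Some of these genes overlap on the mitochondrial genome (ND4L with ND4, ATP8 with ATP6, and ND5 with ND6 on the other strand), so reads could be split between them. Without the 48 h library of pig 5 the median was -1.39 and 1 of the 13 passed. With quantile normalization the median was -0.29 and 2 passed.

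Since these genes took such unequal shares, they were removed and each library was rescaled to an equal total of the remaining genes. Removal of the mitochondrial genes always means these 13. The median of all genes moved from 0.02 to 0.08, and 1071 of 14128 genes then passed with limma, 800 higher in HOPE (5.66%) and 271 lower (1.92%). The share of passing genes that were higher went from 61.4% to 74.7%, and it was 73.0% with TMM scaling. With the same 13 genes removed but median-of-ratios size factors it was 62.0% (528 of 852), and with quantile normalization of all genes 51.8%. Of the 878 genes that had passed and are not among the 13, 799 passed again in the same direction, 537 higher and 262 lower. The change of scaling brought in 263 higher genes and lost 73 lower and 6 higher ones. After removal the count was 1806 with the pig as a block, 0 in the 6 libraries alone (2491 at an unadjusted p under 0.05) and 937 with edgeR, and 6 to 3097 when 1 pig was left out (6 without pig 5, 3097 without pig 6). Dividing by the total count of all genes, mitochondrial ones included, moved the median of all genes to 1.12, and 8122 genes passed, 8081 of them higher. Differences are therefore given relative to the bulk of genes, and a negative difference smaller in size than that shift turns positive on the total-count scale.

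Most genes of the tricarboxylic acid cycle and of fatty acid oxidation had a positive difference, and a minority of them passed. The tricarboxylic acid cycle strips electrons from acetyl units. Its list also held PDHA1, PDHB and DLAT of the pyruvate dehydrogenase complex, which feeds the cycle. All 17 tested genes of the list had a positive difference, with a median of 1.04 against 0.41 at 0 h and 0.02 over all tested genes. Of these, 2 passed, 7 with the pig as a block and 6 after removal of the mitochondrial genes, PDHB and DLAT among the 6. Without the 48 h library of SCS pig 5 the median was 0.69 and none passed. DLST, a subunit of the oxoglutarate dehydrogenase complex (chromosome 7, 98091161 to 98111267), stood at 8644, 8869 and 5395 in HOPE and 4314, 1913 and 1526 in SCS. The groups did not overlap, and SCS pig 1 came nearest to HOPE. Its difference was 1.68 ± 0.41 (limma, adjusted p = 0.0298), and 0.63 at 0 h, where pig 6 of HOPE (2330.0) was below all SCS hearts. IDH2, the mitochondrial isocitrate dehydrogenase, was at 1.10 and passed after removal of the mitochondrial genes but not before (limma, adjusted p = 0.0576 before and 0.0338 after).

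Of 21 fatty acid uptake and oxidation genes, 19 had a positive difference, and the median was 0.93 against 0.35 at 0 h (0.62 without the 48 h library of SCS pig 5, where none passed). Lipoprotein lipase LPL, which frees fatty acids from circulating fat (chromosome 14, 4104761 to 4134964), was the 1 that passed, with 4 passing after removal of the mitochondrial genes and 7 with the pig as a block. It stood at 26528, 33464 and 17803 in HOPE and 11719, 7474 and 7469.6 in SCS, a difference of 1.53 ± 0.30 (limma, adjusted p = 0.0151). The groups did not overlap at 48 h or at 0 h (24463, 26538 and 13533 and 10686, 10077 and 10444; 0.99). PPARA, the receptor that switches on fat-burning genes, was at 2.15 (limma, adjusted p = 0.0534), with HOPE pig 6 (136) below SCS pig 5 (143). GPIHBP1 (chromosome 4, 1253401 to 1256921), the capillary protein that holds LPL on the endothelium, went the other way. Its values were 199.9, 226 and 577 in HOPE and 876, 1141 and 2020.2 in SCS (-2.09 ± 0.48; limma, adjusted p = 0.0243; -0.97 at 0 h).

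Of 19 tested glycolysis genes, 13 had a positive and 6 a negative difference. Passing as higher in HOPE were 3, namely the insulin-responsive glucose transporter SLC2A4 (1.26) and the phosphofructokinases PFKM (1.39) and PFKP (1.01). Lactate dehydrogenase A, LDHA, was lower (-0.60 ± 0.16; limma, adjusted p = 0.0361), with 884, 729.8 and 713 in HOPE and 1309, 1303 and 944 in SCS. LDHA no longer passed after removal of the mitochondrial genes (limma, adjusted p = 0.0645), turned to 0.52 with total-count scaling, and already stood at -0.40 at 0 h. The list median was 0.83 at 48 h and 0.39 at 0 h, and 7 were higher and 1 lower with the pig as a block. After removal of the mitochondrial genes 5 were higher and 0 lower. Without the 48 h library of SCS pig 5 the median was 0.66 and none passed. The 35 nuclear genes for respiratory complexes and ATP synthase had a median of -0.02. With the pig as a block 4 were higher and 4 lower. The core complex I subunit NDUFS1 (1.21) and the small complex IV subunit COX7B (-0.93, 0.19 with total-count scaling) passed in opposite directions after removal (limma, adjusted p = 0.0362 and 0.0472) but not before. ACSS2, which activates acetate, and the proline pathway enzyme ALDH4A1 were among the 10 highest differences, at 2.25 and 2.06. Their values were 2487, 2464 and 1022 against 805, 259 and 275 for ACSS2 and 1179, 1077 and 446 against 277, 193 and 146 for ALDH4A1. COQ10A, a coenzyme Q binding protein of mitochondria, was at 2.26.

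**Figure D4:**
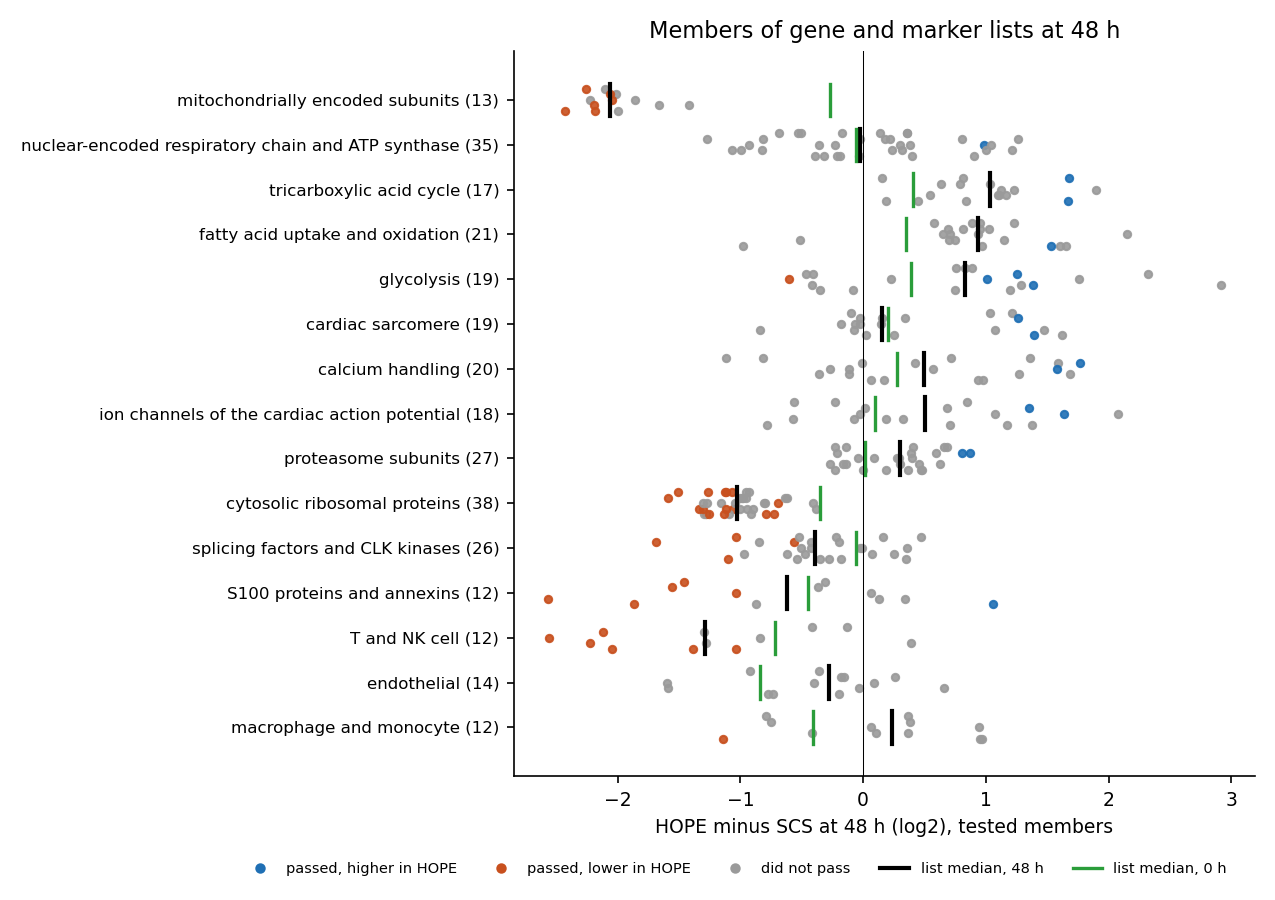
Difference between HOPE and SCS at 48 h (x axis, log2) of each tested member of 15 gene and marker lists (number tested in brackets), with passing members in blue or orange, and list medians at 48 h (black) and 0 h (green). The 17 genes of the tricarboxylic acid cycle list all lie to the right of 0. The 38 ribosomal protein and 13 mitochondrially encoded genes all lie to the left.

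Among genes of cardiomyocyte structure and rhythm few passed, and those that did were higher in HOPE, except the myosin light chain MYL1. Higher were 2 of 19 sarcomere, 2 of 20 calcium handling and 2 of 18 ion channel genes, against 3.84% of all tested genes. Desmoplakin DSP (chromosome 7, 4862649 to 4915626), which anchors desmin filaments at cell junctions, stood at 16394, 14149 and 4748 in HOPE and 3314, 1176 and 1576 in SCS. HOPE pig 6 was lowest of its group and still above every SCS heart. The difference was 2.49 ± 0.62 (limma, adjusted p = 0.0306), and 1.36 at 0 h, where HOPE pig 6 (1690.4) lay within the SCS values. Of 19 sarcomere genes 2 were higher, and 5 with the block, among them the M-band protein MYOM2 (1.39; 0.50 at 0 h). The slow myosin heavy chain MYH7 was at 1.48 and did not pass (limma, adjusted p = 0.0728), with 689826, 697256 and 440162 in HOPE and 402432, 157419 and 155148 in SCS. The median of the sarcomere list was 0.15, and -0.03 with none passing without the 48 h library of SCS pig 5 and 0.56 with quantile normalization, with thin-filament members such as TNNT2 (-0.02) and ACTC1 (0.25) near 0.

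The calcium handling list (20 tested, median 0.50, 0.28 at 0 h) had 2 higher members, and 6 higher and 1 lower with the pig as a block. All 3 HOPE hearts lay above all 3 SCS hearts in 1 of the 20 and below them in 3. Without the 48 h library of SCS pig 5 the median was 0.41 and none passed. CACNA1C (chromosome 5, 69016954 to 69448428), the pore of the L-type calcium channel, stood at 2693, 2555 and 1044 in HOPE and 837, 413 and 523 in SCS. The groups did not overlap, and the difference was 1.77 ± 0.39 at 48 h (limma, adjusted p = 0.0238) and 1.03 at 0 h. The sarcoplasmic reticulum protein SRL was higher by 1.58, with overlapping groups. The calcium pump ATP2A2 was at 1.68 (limma, adjusted p = 0.0565), and passed in 12 of 23 alternatives, among them removal of the mitochondrial genes (limma, adjusted p = 0.0471). Of 18 ion channel genes of the action potential 2 were higher, 5 with the block, among them the potassium channel KCNH2 (1.35, 0.97 at 0 h), which carries repolarisation current. The median of that list was 0.50 (0.10 at 0 h), and 0.39 with none passing without the 48 h library of SCS pig 5.

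MYL1 (chromosome 15, 113038083 to 113051315), an essential myosin light chain of fast skeletal muscle, had the lowest difference among the passing genes with a mean of at least 100. It stood at 29.4, 111 and 65.98 in HOPE and 1366, 740.1 and 506 in SCS, a difference of -3.71 ± 0.75 (limma, adjusted p = 0.0167). At 0 h it stood at 63.3, 206 and 97.2 and 1195, 619 and 516 (-2.73), so the groups did not overlap before storage either. Of 12 skeletal muscle markers 1 reached the level tested, CKM at 0.49, which did not pass. CKM is also on the ventricular cardiomyocyte list, so it does not mark skeletal muscle alone.

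The highest differences with a mean of at least 100 belonged to genes of several kinds, and some had stood apart at 0 h. CYFIP2 (chromosome 16, 65852584 to 66001576), a member of the WAVE complex that starts actin branches, stood at 2633, 1217 and 820.4 in HOPE and 343, 227 and 152 in SCS. The difference was 2.59 ± 0.57 (limma, adjusted p = 0.022), and at 0 h it was 2.54, from 1877, 1215 and 548 against 226, 239.9 and 115, so these pigs differed by as much before storage. The reelin and lipoprotein receptor LRP8 behaved alike, at 2.49 after 48 h and 2.21 at 0 h. Its 48 h values were 399.7, 381 and 93.6 and 41.1, 25.4 and 73.1. SLC38A1, a glutamine transporter, was higher by 2.57 (1.63 at 0 h), and the related receptor VLDLR by 0.97 (0.49 at 0 h). The adhesion protein SDK1 and the semaphorin receptor PLXNA4 were higher by 2.30 and 2.20, with 1.15 and 1.10 at 0 h. OTUD1, a deubiquitinating enzyme, stood at 442, 294 and 388 in HOPE and 53.8, 89.6 and 52.6 in SCS (2.53 ± 0.74; limma, adjusted p = 0.0477), and at 0 h its groups overlapped (0.79).

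EZR, NLRX1, CDK5RAP1 and PSMD2 had the smallest p among higher genes with a symbol once the mitochondrial genes were removed. Ezrin, EZR (chromosome 1, 8403362 to 8452750), which ties actin to the cell membrane, stood at 5272, 4717 and 3957 in HOPE and 1869, 1259 and 1260.0 in SCS at 48 h. The lowest HOPE heart lay above the highest SCS heart, and the difference was 1.68 ± 0.24 (limma, adjusted p = 0.00281). At 0 h the values overlapped, with 4422, 3787 and 2259 in HOPE and 2685, 2218 and 2240.0 in SCS (0.50). NLRX1 (chromosome 9, 46384373 to 46400752), a mitochondrial member of the NOD-like receptors, stood at 588, 652 and 441 and 242, 206 and 178 (1.41 ± 0.21; limma, adjusted p = 0.00281; 0.68 at 0 h). CDK5RAP1, which modifies mitochondrial tRNAs, stood at 539, 679 and 665 and 297, 220.5 and 143 (1.56 ± 0.26; limma, adjusted p = 0.00803; 0.55 at 0 h). PSMD2, a base subunit of the proteasome cap, stood at 3225, 3498 and 3471 and 2004, 1989 and 1836, a small but tight difference of 0.81 ± 0.14 (limma, adjusted p = 0.00973). With PSMD1 (0.87) it made up the 2 higher members among 27 proteasome subunits, whose median was 0.30 against 0.02 at 0 h (0.16 without the 48 h library of SCS pig 5, where none passed). Among 28 regulators of the actin cytoskeleton EZR and CYFIP2 were higher, and the blood cell GTPase RAC2 (-0.94), profilin PFN1 (-0.77) and the leukocyte coronin CORO1A (-1.15) were lower. With the block 8 were lower. RAC2 lost its call after removal of the mitochondrial genes (limma, adjusted p = 0.0542), and RAC2 and PFN1 turned to 0.17 and 0.35 with total-count scaling.

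Of the tested genes of the cytosolic ribosome, 16 were lower in HOPE and none was higher. All 38 had a negative difference, with a median of -1.03 against -0.36 at 0 h, and 16 passed again after removal of the mitochondrial genes and 34 with the pig as a block. In 29 of them the 3 HOPE hearts lay below the 3 SCS hearts, against 10.2% of all tested genes. RPL37 (chromosome 16, 25800883 to 25803526) stood at 4774, 4818 and 10156 in HOPE and 12535, 20486 and 24607 in SCS, with HOPE pig 6 the nearest to SCS. Its difference was -1.59 ± 0.40 (limma, adjusted p = 0.0308), and -0.47 at 0 h, where 4966, 7296 and 13013 and 8074, 10561 and 14566 overlapped. RPL35 (-1.31), RPL38 (-1.51), RPS25 (-1.13), RPL32 (-1.12) and RPL24 (-1.06) passed too, as did FAU (-1.42), which makes a ubiquitin-like protein fused to a ribosomal protein. Without the 48 h library of SCS pig 5 none of the 38 passed in limma. With total-count scaling the median was 0.09, 0 passed in either direction, and RPL32 and RPL24 turned to 0.0037 and 0.0609. Ribosomal protein genes have many near-identical copies, so reads could be split among them.

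Genes of RNA splicing had a median of -0.39 over 26 tested members, against -0.06 at 0 h, and 4 passed as lower, among them LUC7L3, a U1-associated factor. LUC7L3 stood at 538, 564 and 708 in HOPE and 1385, 1548 and 3336 in SCS (-1.68 ± 0.29; limma, adjusted p = 0.00973; -0.37 at 0 h). HNRNPA1 (-0.56), an RNA packaging protein, and PPIG and PNISR (-1.10 and -1.03), which carry arginine-serine repeats, also passed. PPIG and PNISR were not lower at 0 h (0.31 and 0.07), and SCS pig 5 was the highest heart for both at 48 h, at 2023 and 3023. With total-count scaling the median was 0.73, and HNRNPA1, PPIG and PNISR turned to 0.55, 0.0136 and 0.0868.

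Of 12 S100 and annexin genes, which encode calcium-binding proteins, 5 were lower and 1 higher in HOPE. S100A11 (chromosome 4, 97233833 to 97239081), which binds annexins during membrane repair, stood at 755, 546 and 829 in HOPE and 1754, 1758 and 2315 in SCS. The groups were far apart, with SCS pig 1 as the lowest SCS heart at a clearly higher level than HOPE pig 6, the highest HOPE heart. The difference was -1.46 ± 0.21 (limma, adjusted p = 0.00281). At 0 h the values overlapped, at 824, 1008 and 1111 and 1094, 1289 and 1106 (-0.25). S100A6 (chromosome 4, 96098264 to 96099686) stood at 36.7, 51.5 and 148 and 342, 526 and 342 (-2.57 ± 0.42; limma, adjusted p = 0.00708; -0.92 at 0 h). S100A4 and S100A10 were lower, at -1.87 and -1.56, and so was the S100A10 partner ANXA2, at -1.03, while ANXA6 was higher by 1.06. Without the 48 h library of SCS pig 5, 2 of the 12 passed, both lower. The list median was -0.62 (-0.45 at 0 h), and 0.50 with total-count scaling, where 3 were higher and 1 lower.

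Stress and damage genes moved in few cases. Of 22 antioxidant genes, catalase CAT (1.29; 0.34 at 0 h), glutathione reductase GSR (1.22; 0.22 at 0 h) and peroxiredoxin PRDX6 (1.17; 0.66 at 0 h) were higher. Catalase stood at 10754, 10599 and 8484 in HOPE and 6022, 4386 and 2520.1 in SCS. Heme oxygenase HMOX1 was lower, at -0.87, as it was at 0 h (-0.89), and lost its call after removal (limma, adjusted p = 0.0687). HMOX1, the mitophagy receptor BNIP3L (-0.80) and LDHA were the 3 lower genes among 22 hypoxia-inducible ones, whose median was 0.05, and the first 2 turned to 0.23 and 0.31 with total-count scaling. The chaperone HSPA8 (0.87) was the 1 of 21 heat shock and cold response genes that passed. None of 27 cell death and autophagy genes was past the threshold with limma (8 at an unadjusted p under 0.05), 4 under the block, 2 after removal, 1 with edgeR and 3 with DESeq2.

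Of 23 immediate early genes, which respond to stimuli within minutes, FOSL2 (chromosome 3, 110820403 to 110842903) was the 1 that passed. It stood at 349, 323 and 197 in HOPE and 128, 141 and 64.3 in SCS (1.41 ± 0.27; limma, adjusted p = 0.0151), and its 0 h values overlapped at 199, 253 and 172 and 202, 159 and 146 (0.29). The nuclear receptor NR4A3 had a large but variable difference of 2.85 ± 0.95 that did not pass (limma, adjusted p = 0.0663), from 284, 1390.5 and 587 against 49.02, 150.2 and 81.9, and it was 3.59 at 0 h. Of 20 inflammatory cytokines and chemokines, the interleukin IL18 (chromosome 9, 39839959 to 39861258) passed. It stood at 10.3, 9.50 and 16.7 in HOPE and 39.5, 71.5 and 61.4 in SCS (-2.15 ± 0.41; limma, adjusted p = 0.0151; -0.62 at 0 h). Of 13 antigen presentation genes none passed with limma (3 at an unadjusted p under 0.05), edgeR or after removal, while 1 was lower with DESeq2 and 2 with the block. The invariant chain CD74 was at -1.05 (limma, adjusted p = 0.0702; 0.0646 with total-count scaling).

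Sestrin SESN3 (chromosome 9, 27207239 to 27279205), a stress-induced inhibitor of mTORC1, was lower in HOPE and had the most stable call of the genes named. It stood at 119.8, 163 and 174 in HOPE and 335, 621 and 523 in SCS, with no overlap, a difference of -1.66 ± 0.23 (limma, adjusted p = 0.00221). Its 0 h values were 213, 220.1 and 239.6 and 317, 314 and 230.5 (-0.34), and leaving out 1 pig gave -1.91 to -1.47. The arrestin ARRDC4 was lower, at -1.26, close to its 0 h difference (-1.33). They were the 2 passing members of 20 insulin and glucose sensing genes, with 2 higher and 3 lower under the block. The clock repressor CRY2 (1.17; 0.83 at 0 h) was the 1 of 17 clock genes that passed.

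The makeup of the tissue pieces was read from marker lists. Of 12 tested markers of T and NK cells, 11 had a negative difference, and 6 were lower in HOPE at a list median of -1.29 (-0.72 at 0 h; -0.24 with total-count scaling). GNLY (chromosome 3, 59067327 to 59072034), the pore-forming granulysin, stood at 151, 97.7 and 157 in HOPE and 425, 658 and 591 in SCS (-2.04 ± 0.46; limma, adjusted p = 0.0238), and at 0 h at 256, 204 and 589 and 335, 721 and 289 (-0.39). The activating receptor KLRK1 (-2.12), perforin PRF1 (-2.22), granzyme GZMB (-2.56), CD2 (-1.39) and NKG7 (-1.03) passed too, while the T cell receptor partners CD3E (-0.84) and CD3D (0.39) did not. Summed, the list came to 295 to 542 normalised counts in HOPE and 893 to 1393 in SCS at 48 h, and to 606 to 1449 and 1091 to 1651 at 0 h. After removal of the mitochondrial genes 4 passed, and without the 48 h library of SCS pig 5 none did. The part of cell numbers in the other differences was not tested.

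Vessel and macrophage markers were less clear. None of 14 endothelial markers passed with limma (3 at an unadjusted p under 0.05) or edgeR, 2 were lower with DESeq2 and 2 with the block, and their median was -0.28 at 48 h and -0.84 at 0 h. Without the 48 h library of SCS pig 5 it turned to 0.11, and that of the macrophage and monocyte markers from 0.24 to -0.25. The endothelial markers summed to 25466 to 40364 in HOPE and 15705 to 60210 in SCS at 48 h. The junction protein CLDN5 was at -1.59 (limma, adjusted p = 0.058) and at -1.53 at 0 h, so it stood as far apart before storage. Of 11 smooth muscle and pericyte markers 10 had a negative difference, with a median of -0.57 (-0.31 at 0 h; 0.55 with total-count scaling). An unadjusted p under 0.05 was seen in 6, and 1 passed as lower, the actin-binding TAGLN (-1.29; -0.41 at 0 h). Without the 48 h library of SCS pig 5 none passed. Their sums were 14745 to 23902 in HOPE and 25274 to 40844 in SCS at 48 h, and 13142 to 26461 and 26010 to 31318 at 0 h. The myosin phosphatase inhibitor of smooth muscle PPP1R14A was lower, at -2.05 (-0.75 at 0 h). ADIRF, named for fat cell formation, was lower, at -2.09 (-0.47 at 0 h). Of 12 macrophage and monocyte markers AIF1 was lower (-1.14), whereas the macrophage receptors CSF1R (0.94), MRC1 (0.95) and CD163 (0.97) did not pass. MPEG1, a perforin-like protein of macrophages, was higher by 1.42 (0.18 at 0 h), with SCS pig 5 the lowest heart at 67.2. No fibroblast marker of 11 passed with limma (2 at an unadjusted p under 0.05) or edgeR, 1 was lower with DESeq2 and 1 with quantile normalization, and their median was -0.20 (-0.42 without the 48 h library of SCS pig 5). The myelin gene PMP22 (-0.86, 0.26 with total-count scaling) and GFRA3 (-1.35), a receptor of neural cells, were the 2 of 7 neural markers that passed. The lipid droplet coat protein PLIN4, the 1 of 5 adipocyte markers that passed, was higher by 1.90 (1.06 at 0 h), whereas 3 of the 5 had a negative difference and the list median was -0.97. Of 11 ventricular cardiomyocyte markers none passed with limma (3 at an unadjusted p under 0.05) or edgeR, 1 was higher with DESeq2, 2 with the block and 2 with quantile normalization, and the median was 0.45 (0.23 at 0 h; 0.27 without the 48 h library of SCS pig 5). None of 8 atrial cardiomyocyte markers passed with limma or edgeR, and 1 was higher with DESeq2 and 1 with the block. Of the 8, 3 had a positive and 5 a negative difference, with a median of -0.41 (0.29 at 0 h).

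The 6 tested red cell and platelet markers were split, with 3 positive and 3 negative differences, a median of -0.24 and 1 lower with the block. ALAS2 (chromosome X, 47871519 to 47896041), the first enzyme of heme synthesis in red cell precursors, was the 1 that passed, higher in HOPE. It stood at 30.1, 33.9 and 63.03 in HOPE and 4.74, 7.27 and 0 in SCS. It was listed at 0 in pig 5, the library with the fewest reads outside the 13 mitochondrially encoded genes. The difference was 3.51 ± 0.85 (limma, adjusted p = 0.0282; edgeR, adjusted p = 0.0601, which did not pass), and 0.20 at 0 h, where the values were 5.34, 12.6 and 3.24 and 4.16, 3.92 and 8.40. The globin HBB was at 2.43 and did not pass (limma, adjusted p = 0.0806), with 130.1, 135 and 611 in HOPE and 22.1, 71.5 and 40.9 in SCS at 48 h and -0.79 at 0 h. The platelet receptor subunits GP9 and ITGA2B, at -1.54 and -1.39, did not overlap between groups in the other direction and did not pass.

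**Figure D5:**
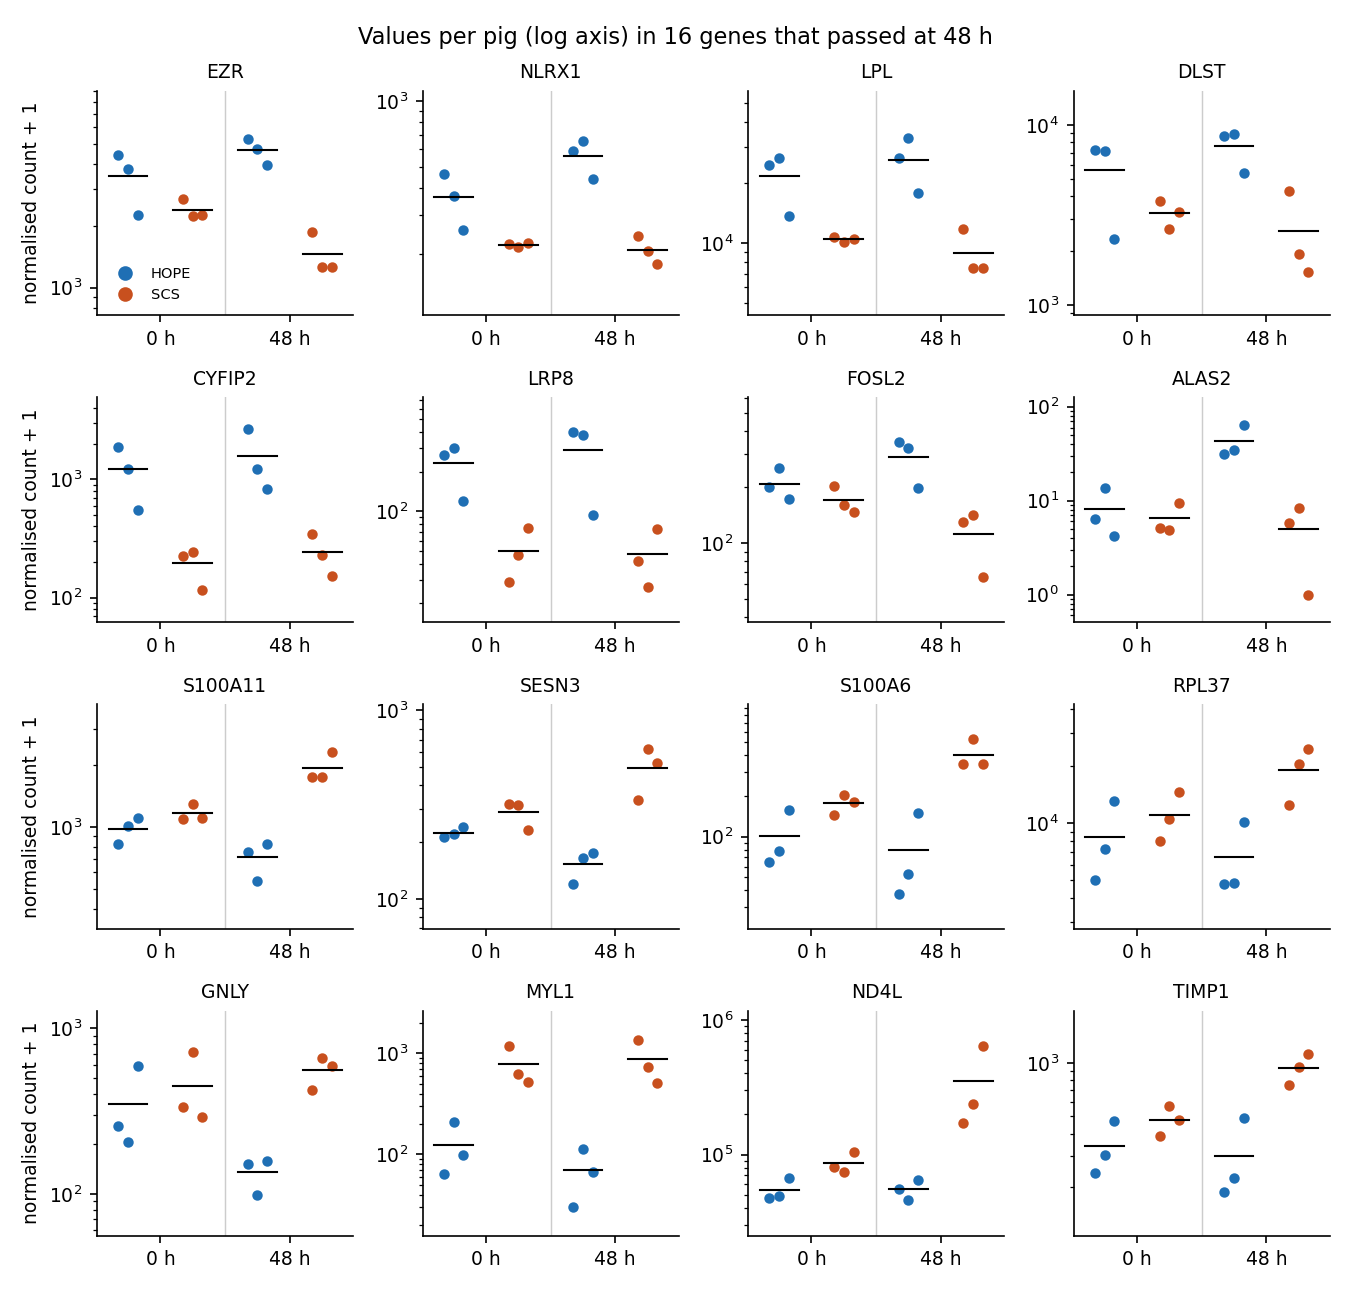
Normalised count + 1 (log axis) per pig at 0 and 48 h in 16 genes that passed at 48 h, with HOPE in blue, SCS in orange and group means as bars. At 48 h the 3 HOPE points lie on one side of the 3 SCS points in each panel, while in CYFIP2, LRP8 and MYL1, for example, they did so at 0 h as well.

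Genes that passed at 48 h and were level at 0 h, within 0.3, are those in which the group means lay close together at the start. The highest were the membrane protein LHFPL2 (1.47), the zinc finger factor ZNF516 (1.43), MPEG1, FOSL2, the ubiquitin ligase MARCHF7 (1.40) and the orphan nuclear receptor NR2C2 (1.40). ZNF516 (chromosome 1, 147987660 to 148100788) stood at 92.6, 102 and 59.1 in HOPE and 30.04, 27.9 and 32.2 in SCS after 48 h, and at 73.2, 41.9 and 46.96 and 60.3, 50.2 and 45.6 at 0 h. The HOPE hearts were the higher ones at 48 h, and at 0 h the groups overlapped (1.43 ± 0.30; limma, adjusted p = 0.0203; 0.02 at 0 h). MARCHF7 stood at 788, 729 and 443 and 180.3, 281 and 269, from 602, 543 and 363 and 414, 441 and 369.7. The lowest were ND3, ND6, PHLDA2 (-1.71), GARIN5A (-1.64), S100A11 and HCFC1R1 (-1.40). PHLDA2 (chromosome 2, 2057679 to 2058675), an imprinted growth-limiting gene, stood at 23.5, 19.7 and 51.2 in HOPE and 129.7, 90.9 and 76.01 in SCS, and at 0 h its groups overlapped at 24.4, 49.3 and 46.96 and 60.3, 22.7 and 45.6. A level start does not show that the change from 0 to 48 h differed, which was tested for each gene by its own term.

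In that test, of the change from 0 to 48 h in HOPE minus the change in SCS with the pig as a block, 18 genes passed with limma (0.127%), 3 higher and 15 lower (0.106%), and 1964 had an unadjusted p under 0.05. Of the 18, 12 had also passed at 48 h. The 6 with the smallest p, a symbol and a mean of at least 50 were EZR at 1.18 ± 0.19 (limma, adjusted p = 0.0331), RPL37 at -1.12 ± 0.19, RPL35 at -0.996 ± 0.17, TIMP1 at -1.22 ± 0.22, FAU at -0.92 ± 0.17 and RPL38 at -0.96 ± 0.18. EZR mRNA went up in all 3 HOPE hearts and down in all 3 SCS hearts. TIMP1 (chromosome X, 42103251 to 42106289), an inhibitor of matrix-cleaving enzymes, went from 239, 303 and 473 to 186, 223 and 487 in HOPE and from 385, 574 and 478 to 746, 942 and 1119.7 in SCS. It was the 1 of 26 matrix genes that passed at 48 h (-1.76 ± 0.36; limma, adjusted p = 0.017; -0.54 at 0 h). Ribosomal proteins and FAU made up 6 of the 18. The test called 0 genes without the block (510 at an unadjusted p under 0.05; 0 with edgeR), 0 with the 0 and 48 h libraries alone (1101 at an unadjusted p under 0.05) and 20 after removal of the mitochondrial genes, 12 of them higher. Without pigs 2, 4, 5 or 6 it called 0, without pig 3 it called 49, and without pig 1 it called 260.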

How the data were processed

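Heart muscle pieces of 6 pigs (24 libraries of the first arm) were sequenced from a stranded poly(A) kit, per the labels' protocols. The deposited table holds a signal, gene counts already divided by the authors by a factor for each library, per the file headers and the values. The submitters' processing notes list, with no role, Sscrofa11.1, bcl2fastq 2.17, DESeq2, FastQC, featureCounts 2.0.6, HISAT2 2.2.1, STAR 2.5.2b, Subread 1.5.2 and Trimmomatic 0.36. The strand setting was not given in the sources used here. In 23 libraries 100% of the values were whole multiples of a step (tolerance 1e-06), which gave the reads used in the count tests; SCS pig 1 at 12 h was left out of these.

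Groups came from the titles. limma 3.58.1 in R 4.3.3 was fitted once over the 8 groups of 24 libraries on log2(value + 1), with a mean trend, for 14141 genes with a mean of at least 10, with 16 residual degrees of freedom. Fold changes on this scale understate changes of low genes. The script was tested on simulated data. Each heart gave all 4 biopsies, and a second fit held the pig as a block: deviations from the group means correlated in all 36 same-pig pairs (r of 0.232 to 0.73), and the estimated correlation was 0.44. The difference in change used the pig as a fixed term. edgeR 4.0.16 and DESeq2 1.42.0 were alternatives, as were other scalings, filters, a pseudocount of 5, quality weights and leaving out pigs or libraries. Named genes were the 10 highest and 10 lowest passing differences with a mean of at least 100, the 6 highest and 6 lowest with a mean of at least 50 and a 0 h difference within 0.3, the 6 with the smallest p for the difference in change and 6 after removal of the mitochondrial genes, and up to 4 of each list. Some further list members were named outside this rule, among them ANXA2, ANXA6, CORO1A, CD2, NKG7, CD3E and CD3D. The members and lists were chosen with earlier results of these data known. Symbols came from the table for 14365 genes and from a reference table for 109. Results for a few genes are not reported here.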

Additional observations from a re-analysis of the deposited data

Results flagged for a closer look

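The change from 0 to 48 h differed between HOPE and SCS hearts in a test of that difference (limma with the pig as a block, adjusted p under 0.05) for 6 named genes. HOPE minus SCS, on the log2 scale, it was 1.18 for EZR, -1.12 for RPL37, -0.996 for RPL35, -1.22 for TIMP1, -0.92 for FAU and -0.96 for RPL38. The share of the mitochondrially encoded genes changed by -26.1 percentage points in HOPE relative to SCS. The share went down in all 3 HOPE hearts and up in all 3 SCS hearts, and the exact permutation p of 0.1 is the smallest that 3 against 3 allows. No cause was tested for any of these.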

How the results depend on the processing

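Among the 89 passing genes covered by the naming rule, the direction was kept under every alternative run except total-count scaling. That scaling turned LDHA to 0.52, RPL32 to 0.0037, RPL24 to 0.0609, RAC2 to 0.17, PFN1 to 0.35, BNIP3L to 0.31, HMOX1 to 0.23, HNRNPA1 to 0.55, PPIG to 0.0136, PNISR to 0.0868 and PMP22 to 0.26. It also turned COX7B (0.19) and CD74 (0.0646), which had not passed. Passing genes named outside the rule, such as ANXA2, ANXA6, CORO1A, CD2 and NKG7, were not followed through the alternatives. The negative differences of ANXA2 and NKG7 are smaller in size than the total-count median of all genes, 1.12. The 884 genes at 48 h became 8122 with total-count scaling, 1918 with DESeq2, 4217 with library quality weights, 1628 with the pig as a replicate block, 0 with the 6 libraries alone and, leaving out single libraries, 14 (SCS pig 5 at 48 h), 1474 (HOPE pig 6 at 0 h), 2174 (HOPE pig 6 at 48 h) and 2886 (SCS pig 1 at 48 h); the last 2 were chosen after seeing the data. Leaving out 1 pig gave 5 to 3291. The count stayed within 1.5-fold, at 706 to 1135, with edgeR, TMM, median-of-ratios and quantile scaling, no filter, a mean of at least 50 and a pseudocount of 5. At 0 h, DESeq2 called 22 and leaving out 1 pig gave 0 to 337. After removal of the mitochondrial genes the block gave 1806, the 6 libraries alone 0, and leaving out 1 pig 6 to 3097. For the difference in change, 0 genes passed with no replicate block, 0 with the 0 and 48 h libraries alone, 0 with edgeR (added after seeing the data) and 0 to 260 without 1 pig. The mitochondrial share differed by -40.4 to -23.2 points without 1 pig. The block changed no call of the 89, and that fit too drew its spread from all 24 libraries. The causes of these moves were not tested. Depth limits low genes most in SCS pig 5, which had 5628265 reads outside the 13 mitochondrially encoded genes.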

Other observations

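Of 29 mitochondrial ribosomal proteins, MRPS5 passed at 48 h and was higher in HOPE by 0.95 (limma, adjusted p = 0.0469), with a list median of 0.13 (0.10 at 0 h), and 3 were higher with the pig as a block. Of 20 genes of leukocyte adhesion, coagulation and complement none passed with limma or edgeR (2 at an unadjusted p under 0.05), and 1 was lower with DESeq2. The adhesion receptor of activated endothelium SELP was at 1.79 (limma, adjusted p = 0.111) and the protein C receptor PROCR at -1.10 (limma, adjusted p = 0.0579). Of 13 genes of cardiac stress and stretch none passed with limma or edgeR (2 at an unadjusted p under 0.05), 2 were higher with DESeq2, 2 with the pig as a block and 1 after removal of the mitochondrial genes, and XIRP1, an actin-binding protein of injured muscle, was at 2.21 (limma, adjusted p = 0.0541). Markers of neutrophils, B and plasma cells, mast cells and mesothelium had at most 3 members above the level tested and none with an unadjusted p under 0.05.

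A further 4 genes that passed for the difference in change had a symbol and were outside the naming rule, and are named here after their values were seen. The ribosomal proteins RPS19 and RPL28 differed by -0.92 and -0.88, DEPP1, a FOXO target, by -1.17, and ID1, an inhibitor of transcription factors, by -1.05. DEPP1 and ID1 did not pass at 48 h itself (limma, adjusted p = 0.15 and 0.578).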
